A study of Mus musculus with 8 samples.

Results

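The genes described here belong to 2 branches of the cellular stress response, studied in macrophages sorted from tumours of hosts with and without the stress-induced transcription factor ATF3. A list of 39 mouse genes was drawn up from the known biology of the integrated stress response and the unfolded protein response, and every array probe whose accession maps to one of them was taken, with the brightest probe standing for its gene. The list holds 21 ATF4-type genes and 18 genes of the endoplasmic reticulum (ER). Of the 39 genes, 37 had a probe that could be matched by accession, and all 37 were among the 20879 genes tested. Of these 20879 entries, 13461 were matched to a named gene. The others were kept under their probe's own identifier and may not all be distinct genes, and every share of all genes tested below includes them. Pdia3, an ER disulfide isomerase, and Dnajb11, an ER co-chaperone, had no matched probe.

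The samples came from C57BL/6 mice that were wild type (WT) or ATF3 knockout (KO) and that carried orthotopic breast tumours grown from implanted PyMT cells, which express the polyoma virus middle T antigen. About 21 days after implantation the tumours were dissociated, and cells positive for both CD45, a leukocyte protein, and the macrophage surface protein encoded by Adgre1 were sorted. The knockout is that of the host, so both groups share the implanted line, and host age and sex are not given in the sources used here. There were 4 samples per group, numbered 1 to 4 in each, with 1 array per sample. Slide 1 held samples 1 and 2 of each group, slide 2 held samples 3 and 4, and whether the samples are separate mice is not stated, so each p-value rests on a spread between samples that may be technical.

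The integrated stress response starts when one of several kinases phosphorylates the translation factor eIF2 after amino acid shortage, unfolded protein in the ER or other stress. General protein synthesis then slows while the transcription factor ATF4 is made, and ATF4 switches on genes for amino acid synthesis and transport, tRNA charging and, under lasting stress, cell death. The unfolded protein response of the ER runs through the sensors PERK, which feeds into the same ATF4 arm, IRE1, which splices the Xbp1 message, and ATF6, and it raises the chaperones and disulfide isomerases that fold secreted proteins. ATF3 is itself a target of ATF4.

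The known promoter elements of the 2 branches come first, as they name what each branch responds to. RefSeq promoter windows of 300 bases (250 before and 50 after the start site, assembly GRCm38.p6) were matched by symbol for 35 of the 39 genes, and both strands were searched. The C/EBP-ATF response element (CARE, written TGATGNAA), which ATF4 binds together with a C/EBP partner, occurred in 7 of 19 ATF4-type genes and 1 of 16 ER genes, against 4.51% of all 27025 genes with a window. The ER stress response element (ERSE, CCAAT and CCACG with 9 bases of any kind between them), bound by NF-Y and ATF6, occurred in 0 of 19 ATF4-type genes and 6 of 16 ER genes, against 0.137% of all 27025 genes with a window. The related element ERSE-II (ATTGG and CCACG with 1 base of any kind between them) occurred in 0 of 19 ATF4-type genes and 2 of 16 ER genes, against 0.0444% of all 27025 genes with a window. The full cyclic AMP response element (CRE, TGACGTCA), a site that ATF3 can bind, occurred in 1 of 19 ATF4-type genes and 0 of 16 ER genes, against 2.03% of all 27025 genes with a window, the ATF4-type gene being Ppp1r15a. An AP-1 pattern with any base at its centre (TGANTCA) was also searched. It occurred in 1 of 19 ATF4-type genes and 2 of 16 ER genes, against 8.97% of all 27025 genes with a window. Shares of all single windows were 3.97% for CARE and 0.119% for ERSE. Motifs could overlap, and a match is a run of letters, not a site.

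The CARE genes were Trib3, Chac1, Nupr1, Asns, Vldlr, Aars and Gars, with Herpud1 on the ER side, and the ERSE genes were Hspa5, Hsp90b1, Calr, Canx, Pdia6 and Creld2. Below are 4 CARE promoters, chosen because these genes varied most between samples, and then 3 ER promoters with ERSE or ERSE-II. Capitals mark every match to the 5 motifs on either strand, and all sequences run 5′ to 3′ on the gene's strand. Counting the start site as 0, the CARE match began at position −23 in Asns, −193 in Chac1, 14 in Trib3 and −200 in the second Vldlr window. The ERSE match began at −65 in Hspa5, which also has an AP-1 match further upstream, and at −162 in Calr, while Herpud1 has a CARE match at −112 and an ERSE-II match at −52.
Asns, chr6:7693160-7693459 (minus strand): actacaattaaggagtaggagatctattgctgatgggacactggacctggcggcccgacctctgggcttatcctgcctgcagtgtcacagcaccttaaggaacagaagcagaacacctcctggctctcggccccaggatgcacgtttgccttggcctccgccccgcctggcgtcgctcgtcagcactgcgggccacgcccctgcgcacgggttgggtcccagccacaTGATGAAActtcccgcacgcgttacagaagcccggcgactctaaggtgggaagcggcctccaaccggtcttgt
Chac1, chr2:119350992-119351291 (plus strand): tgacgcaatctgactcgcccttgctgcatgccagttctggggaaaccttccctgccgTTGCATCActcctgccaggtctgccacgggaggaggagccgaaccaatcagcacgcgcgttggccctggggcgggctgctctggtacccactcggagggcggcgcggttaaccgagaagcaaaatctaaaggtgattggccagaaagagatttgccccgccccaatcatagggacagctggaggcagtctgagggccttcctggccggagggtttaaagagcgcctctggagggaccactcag
Trib3, chr2:152344011-152344310 (minus strand): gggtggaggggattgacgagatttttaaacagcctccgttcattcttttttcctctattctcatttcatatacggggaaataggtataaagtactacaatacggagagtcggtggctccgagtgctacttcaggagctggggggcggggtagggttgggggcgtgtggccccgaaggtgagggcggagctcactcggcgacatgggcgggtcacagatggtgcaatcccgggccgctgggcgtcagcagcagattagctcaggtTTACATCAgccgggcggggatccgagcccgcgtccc
Vldlr, chr19:27216770-27217069 (plus strand): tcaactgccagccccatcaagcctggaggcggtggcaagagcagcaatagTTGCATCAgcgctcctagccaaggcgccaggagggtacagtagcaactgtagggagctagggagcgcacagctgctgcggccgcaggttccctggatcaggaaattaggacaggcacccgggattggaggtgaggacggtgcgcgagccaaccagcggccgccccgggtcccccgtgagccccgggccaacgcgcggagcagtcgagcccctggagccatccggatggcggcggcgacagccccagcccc
Hspa5, chr2:34771840-34772139 (plus strand): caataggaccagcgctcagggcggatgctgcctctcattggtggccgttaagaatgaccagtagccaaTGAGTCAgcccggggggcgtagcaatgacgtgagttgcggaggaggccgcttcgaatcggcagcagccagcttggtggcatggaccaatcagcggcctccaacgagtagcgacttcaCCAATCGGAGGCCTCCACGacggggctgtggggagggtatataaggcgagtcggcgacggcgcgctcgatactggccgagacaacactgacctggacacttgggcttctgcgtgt
Calr, chr8:84846882-84847181 (minus strand): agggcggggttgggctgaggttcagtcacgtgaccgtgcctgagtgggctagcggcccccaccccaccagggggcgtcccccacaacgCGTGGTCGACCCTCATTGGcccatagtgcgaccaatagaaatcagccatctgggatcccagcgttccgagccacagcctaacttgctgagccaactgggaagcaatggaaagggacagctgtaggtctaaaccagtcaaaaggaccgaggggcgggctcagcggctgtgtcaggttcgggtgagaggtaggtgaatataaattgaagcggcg
Herpud1, chr8:94386179-94386478 (plus strand): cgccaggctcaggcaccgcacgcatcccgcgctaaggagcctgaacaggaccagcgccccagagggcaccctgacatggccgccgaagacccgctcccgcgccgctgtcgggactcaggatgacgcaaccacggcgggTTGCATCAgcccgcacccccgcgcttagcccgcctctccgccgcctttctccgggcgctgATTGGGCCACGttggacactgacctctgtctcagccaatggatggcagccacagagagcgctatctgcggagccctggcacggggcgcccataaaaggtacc

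The arrays were alike in quality. Their 75th percentiles of signal ranged from 619 to 927 intensity units (20.5 to 32.0 times background), and 0 spots were saturated. All 14 macrophage markers tested, among them Adgre1, Csf1r and C1qa, were well above background on all 8 arrays, and Cd68 had no matched probe. Atf3 itself measured 5.0, 5.07, 4.87 and 4.59 in WT 1 to 4, against 5.6, 4.93, 5.04 and 4.96 in KO 1 to 4, in log2 units relative to each array's 75th percentile, the scale of every level below. Its means were 4.88 ± 0.21 and 5.13 ± 0.31 (SD, n = 4 each), the groups overlapped (two-sided exact permutation p = 0.314), and the labels do not place the probe inside or outside the deletion, so this signal cannot check the genotype labels and directions below are between samples labelled KO and WT.

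No gene of either branch passed the test between genotypes. By limma, 0 of the 37 genes had an adjusted p under 0.05, where 0% of all 20879 genes did, and the adjusted p was 0.99995 for each of the 37. At an unadjusted p under 0.05 there were also 0 of 37, against 3.31% of all genes (1.11% higher and 2.20% lower in KO). For 0 of 37 were the groups free of overlap, against 2.11% of all genes (0.738% with KO above and 1.37% with KO below). With the replicate number as a block, 0 of 37 passed at an unadjusted p under 0.05, against 7.52% of all genes, and Chac1 came nearest, with a blocked limma adjusted p of 0.669. A p that misses the threshold does not show equal levels, so the intervals are given too. The 95% interval of the KO minus WT difference excluded a 2-fold change either way for 31 of the 37 genes, against 51.2% of all genes. The exceptions were Trib3, Chac1, Asns, Vldlr, Ern1 and Pdia4, which are also the 6 members whose spread within groups exceeded that of the median gene. Blocked on replicate number, the interval excluded a 2-fold change for 34 of 37, against 65.0% of all genes, and only Chac1 (−1.10 to 0.017), Ern1 and Pdia4 reached it. The standard error of the Vldlr difference, for instance, went from 1.02 to 0.19 with the block.

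**Figure D1:**
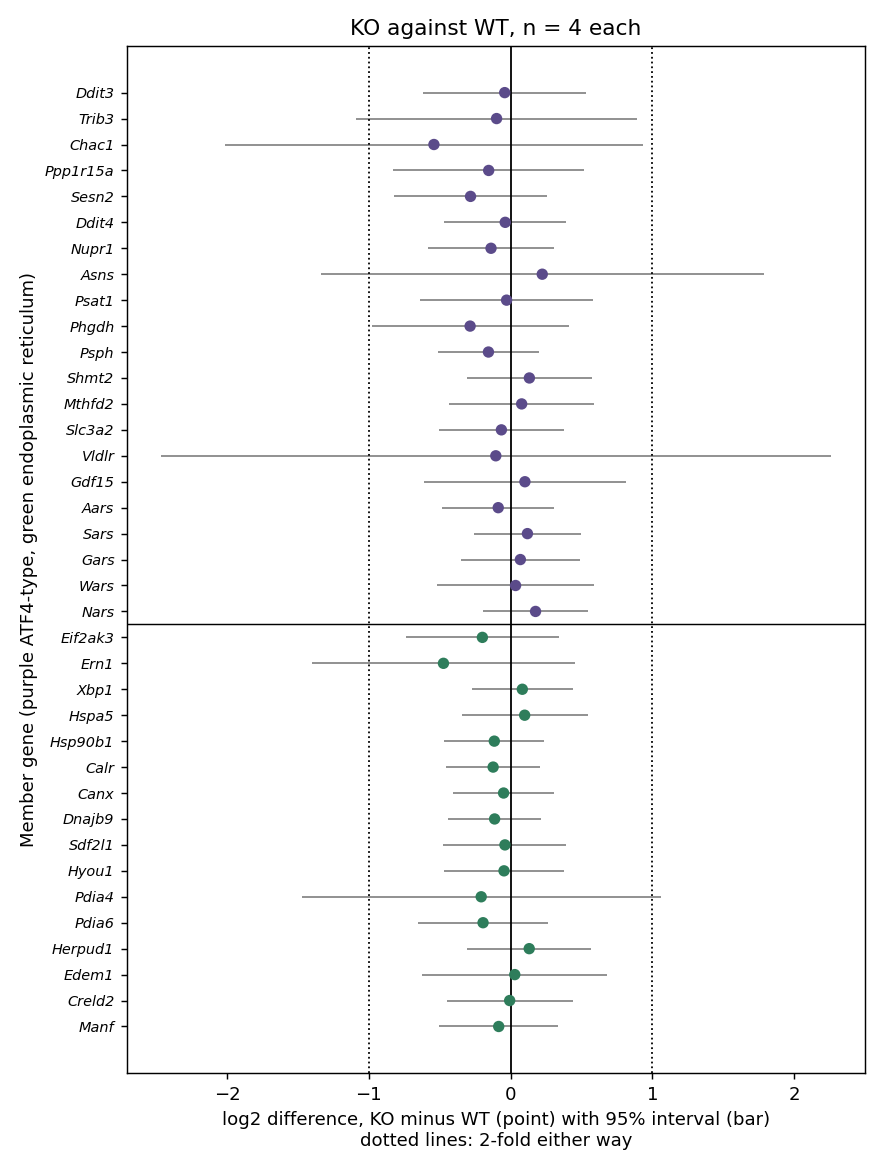
Log2 difference of KO minus WT (point) with its 95% interval (bar) for the 37 measured genes, 4 samples per group, after subtraction of the array's 75th percentile. All intervals include 0, and 31 of them lie between the dotted lines at a 2-fold change either way. With normexp on the median signals 26 of the 37 points lie above 0, in place of 12.

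Among the ATF4-type genes, 8 of 21 were higher in KO, with a median log2 difference of −0.042 and a range from −0.54 to 0.22. Among the ER genes, 4 of 16 were higher in KO, with a median log2 difference of −0.067 and a range from −0.47 to 0.13. Over all genes tested, 10098 of 20879 were higher, with a median of −0.0098. These directions depend on the signal used: with normexp on the median spot signals, which changes the spot signal and the background correction together, 14 of 21 and 12 of 16 were higher in KO, with medians of 0.035 and 0.078, while the median of all genes moved to −0.13. The set of ATF4-type genes against ER genes, taken as the mean centred log2 signal of the first list minus that of the second, measured 0.028, 0.21, −0.44 and 0.14 in WT 1 to 4, against 0.028, 0.23, −0.56 and 0.38 in KO 1 to 4. Its group means were −0.015 ± 0.29 in WT and 0.018 ± 0.41 in KO (SD, n = 4 each), and the groups overlapped, with the lowest value of each group in sample 3.

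The regulators of the integrated stress response came first. Ddit3, which encodes the death-promoting factor CHOP, measured 1.43, 1.73, 0.93 and 1.29 in WT 1 to 4, against 1.62, 1.2, 0.87 and 1.53 in KO 1 to 4. The groups overlapped, and sample 3 was lowest in both. Its difference was −0.042 with a standard error of 0.25 (95% interval −0.61 to 0.53). Ppp1r15a, whose product GADD34 brings a phosphatase to eIF2 and so ends the response, measured 3.31, 3.67, 2.53 and 3.07 in WT 1 to 4, against 3.34, 2.93, 2.54 and 3.15 in KO 1 to 4. Its difference of −0.15 (standard error 0.29) lay within the spread between samples, and sample 3 was again lowest in WT and in KO. Trib3, a pseudokinase induced by ATF4 and CHOP that feeds back on ATF4, measured −1.12, −1.59, −2.07 and −0.61 in WT 1 to 4, against −1.65, −1.04, −2.32 and −0.77 in KO 1 to 4. The groups overlapped widely, with sample 4 highest and sample 3 lowest in each.

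Chac1, an enzyme that breaks down glutathione and is a late ATF4 target, measured −1.51, −1.64, −2.44 and −0.0003 in WT 1 to 4, against −1.39, −2.26, −3.17 and −0.93 in KO 1 to 4. It had the lowest difference of all members, −0.54, but a standard error of 0.64, and its interval ran from −2.01 to 0.93. The KO sample lay below the WT sample of the same number in 3 of 4 pairs. Sesn2, a sestrin that restrains the growth kinase mTORC1, measured 0.13, −0.71, −0.47 and −0.18 in WT 1 to 4, against −0.29, −0.88, −0.54 and −0.66 in KO 1 to 4. It was lower in KO in 4 of 4 pairs, had the smallest unadjusted limma p of the 37 genes (0.262, adjusted 0.99995) and a difference of −0.28 ± 0.23 (standard error), and the groups overlapped. Psph, Pdia6 and Manf were also lower in KO in 4 of 4 pairs, which makes 4 of the 36 members with complete pairs, against 9.67% of all genes. The members higher in 4 of 4 pairs numbered 0, against 7.30% of all genes.

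Nupr1, a small stress-induced chromatin protein, measured 4.22, 4.45, 4.14 and 4.32 in WT 1 to 4, against 4.35, 4.12 and 3.96 in KO 1 to 3, its spot on the array of KO sample 4 having been marked as an outlier and left out of the fit. The 3 KO values fell in and just below the WT range, with a difference of −0.14 ± 0.19 (standard error). Ddit4, a brake on mTORC1 that also answers to hypoxia, varied little, from 5.77 to 6.38 over the 8 samples, and its difference was −0.038. Of these 7 regulators 0 were higher in KO by their point estimates, with differences from −0.54 to −0.038, none past the test, and with normexp on the median signals Ddit3, Ddit4 and Ppp1r15a turned positive (0.035, 0.12 and 0.0030).

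The amino acid genes are the metabolic output of ATF4. Asns, asparagine synthetase, measured 0.83, 1.88, −0.15 and 1.41 in WT 1 to 4, against 1.16, 1.68, −0.45 and 2.47 in KO 1 to 4. The values spanned 2.03 log2 units in WT and 2.92 in KO, with sample 3 lowest in each, so that the difference of 0.22 had a standard error of 0.67. Psat1, the second enzyme of serine synthesis, measured 2.78, 3.5, 2.93 and 3.37 in WT 1 to 4, against 2.75, 3.40, 2.81 and 3.5 in KO 1 to 4. The same-numbered samples lay within 0.13 of one another, and the KO minus WT difference was −0.029. In both groups Psat1 was higher in samples 2 and 4 than in samples 1 and 3.

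Phgdh, which commits carbon to serine synthesis, measured 0.93, 0.86, 0.35 and 0.56 in WT 1 to 4, against 0.54, 0.55, −0.40 and 0.87 in KO 1 to 4 by its brightest probe, a difference of −0.29 ± 0.30 (standard error). Its 2 other probes, which are dimmer, gave 0.14 and 0.14. The dimmest of the 3 read −2.57, −2.26, −4.32 and −2.17 in WT 1 to 4, against −3.02, −1.96, −4.31 and −1.48 in KO 1 to 4, with sample 3 far below the others in both groups, and sample 3 was also lowest by the brightest probe. Psph, the last enzyme of serine synthesis, measured 2.01, 1.95, 1.83 and 1.98 in WT 1 to 4, against 1.87, 1.58, 1.75 and 1.94 in KO 1 to 4. The KO sample was lower in each pair, with a mean log2 difference of −0.16 (standard error 0.15), and the groups overlapped.

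The mitochondrial one-carbon enzymes Shmt2 and Mthfd2 differed by 0.13 and 0.078, with 95% intervals of −0.31 to 0.57 and −0.43 to 0.59. Slc3a2, the heavy chain shared by several amino acid transporters, differed by −0.065 and lay between 5.14 and 5.73 in the 8 samples. The aminoacyl-tRNA synthetases, which charge tRNAs with amino acids, were the steadiest ATF4-type group, with within-group SDs from 0.15 for Nars to 0.32 for Wars. Nars, for asparagine, measured 3.32, 3.42, 3.36 and 3.02 in WT 1 to 4, against 3.48, 3.38, 3.59 and 3.36 in KO 1 to 4. Of the 4 KO values 2 lay within the WT range, and the difference was 0.18 ± 0.16 (standard error). Sars (serine) differed by 0.12, Gars (glycine) by 0.068, Wars (tryptophan), which interferon also induces, by 0.035 and Aars (alanine) by −0.088, and the 95% intervals of all 5 excluded a 2-fold change.

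Vldlr, a lipoprotein receptor that ATF4 induces, varied more than any other member. It measured 0.38, 0.97, −1.39 and 2.24 in WT 1 to 4, against 0.17, 1.39, −1.90 and 2.12 in KO 1 to 4. The same-numbered samples of the 2 genotypes differed by 0.12 to 0.51, while samples 3 and 4 of one genotype were 3.63 apart in WT and 4.02 in KO. Its KO minus WT difference was −0.10 with an interval of −2.47 to 2.26. Gdf15, a secreted stress cytokine, ran the other way across numbers, with 1.31, 1.48, 2.51 and 1.86 in WT 1 to 4, against 2.02, 1.73, 2.31 and 1.5 in KO 1 to 4. Sample 3 was highest for Gdf15 in both groups, and its difference between genotypes was 0.10 ± 0.31 (standard error).

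On the ER side the sensors came first. Xbp1, the factor activated by IRE1 splicing (the probe was not matched to a splice form), measured 0.77, 0.65, 1.01 and 0.80 in WT 1 to 4, against 0.99, 0.76, 0.88 and 0.93 in KO 1 to 4, a difference of 0.082 with an interval of −0.28 to 0.44. Eif2ak3, which encodes PERK, measured 0.96, 0.83, 1.03 and 0.98 in WT 1 to 4, against 0.87, 1.03, 0.99 and 0.11 in KO 1 to 4. KO sample 4 stood below the other 7 samples, and the difference of −0.20 became 0.013 without it. Ern1, which encodes IRE1, was dim, with −2.56, −2.41, −2.63 and −2.22 in WT 1 to 4, against −2.33, −4.18, −2.54 and −2.67 in KO 1 to 4. KO sample 2 stood lowest by 1.51 log2 units, and the difference of −0.47 became −0.058 without it.

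By their brightest probes the ER chaperones were bright and steady. Hspa5, which encodes BiP, the chaperone that holds the sensors inactive, measured 5.45, 5.79, 5.58 and 5.67 in WT 1 to 4, against 6.01, 5.35, 5.84 and 5.69 in KO 1 to 4. The groups overlapped, KO sample 1 being highest and KO sample 2 lowest of the 8, and the difference was 0.099 ± 0.19 (standard error). Calr, a lectin chaperone for glycoproteins, measured 6.45, 6.57, 6.40 and 6.50 in WT 1 to 4, against 6.45, 6.38, 6.38 and 6.21 in KO 1 to 4, a difference of −0.12 with an interval of −0.46 to 0.21. By this probe its within-group SD of 0.0886 was lower than that of 99.3% of all genes tested. The dimmer Calr probe gave a difference of 0.054, with SDs of 0.34 in WT and 0.23 in KO. Hsp90b1, the ER member of the HSP90 family, measured 4.31, 4.50, 4.62 and 4.50 in WT 1 to 4, against 4.45, 4.27, 4.48 and 4.27 in KO 1 to 4, a difference of −0.12, and its other probe gave −0.28.

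Dnajb9, a co-chaperone of BiP induced by IRE1, measured 2.38, 2.50, 2.42 and 2.53 in WT 1 to 4, against 2.31, 2.23, 2.43 and 2.41 in KO 1 to 4. By this brightest probe its within-group SD of 0.082 was the lowest among the 37 genes, and its difference was −0.11 ± 0.14 (standard error). A dimmer Dnajb9 probe gave 0.040 (SDs of 0.31 in WT and 0.34 in KO). The dimmest gave −0.21 (SDs of 0.13 in WT and 0.14 in KO). Canx, the membrane-bound partner of Calr, differed by −0.050 (and by 0.30 and −0.11 by its other probes), Sdf2l1 by −0.040 and Hyou1, an exchange factor for BiP, by −0.047. Both disulfide isomerases with a probe had point estimates under 0. Pdia6 measured 3.13, 2.90, 3.41 and 3.18 in WT 1 to 4, against 2.96, 2.82, 3.33 and 2.73 in KO 1 to 4, a difference of −0.19 ± 0.20 (standard error) with overlapping groups, and the dim Pdia4 differed by −0.21 with an interval of −1.47 to 1.06.

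Genes for the removal of misfolded ER proteins did not pass the test. Herpud1, a scaffold of that pathway with both CARE and ERSE-II in its promoter window, measured 2.09, 2.34, 2.22 and 1.94 in WT 1 to 4, against 2.58, 2.07, 2.40 and 2.07 in KO 1 to 4, a difference of 0.13 with an interval of −0.31 to 0.57. Edem1, which hands misfolded glycoproteins to degradation, differed by 0.029. The secreted ER stress proteins Creld2 and Manf differed by −0.0069 and −0.084. For 14 of the 16 ER genes the 95% interval excluded a 2-fold change, against 17 of 21 ATF4-type genes.

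**Figure D2:**
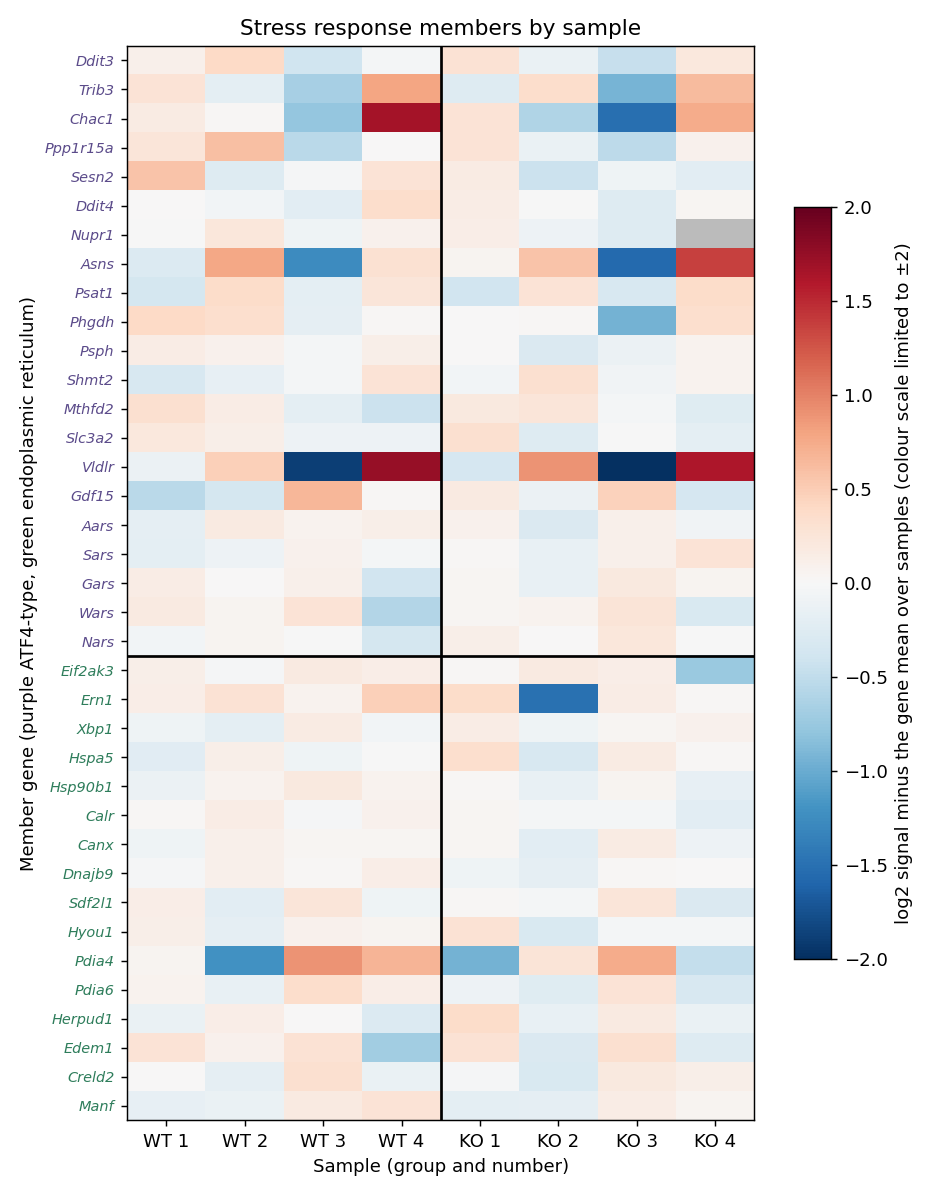
Log2 signal of each measured gene in each of the 8 samples, minus the mean of that gene over the samples (colour, limited to 2 log2 units either way), with ATF4-type genes above the line and ER genes below it. The grey cell is the outlier-marked Nupr1 spot. Vldlr, Asns, Chac1 and Trib3 are below their means in sample 3 of both groups and above them in sample 4 of both, and Pdia4 and Ern1 show the strongest among the ER genes.

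Further genes of the same pathways were read from 2 lists. Of 34 further integrated stress response genes 32 were tested, and 0 were called by limma (0 also at an unadjusted p under 0.05), with 16 higher and 16 lower in KO and a median of 0.018. The smallest unadjusted p values there belonged to Ppp1r15b, the constitutive counterpart of Ppp1r15a, at 0.45 ± 0.36 (standard error), and the methionyl synthetase gene Mars1 at 0.24 ± 0.23. Iars and Lars followed, each at 0.13. Of 36 further unfolded protein response genes 35 were tested, and 0 were called (0 also at an unadjusted p under 0.05), with 9 higher and 26 lower and a median of −0.051. Its leading genes were Spcs2, a signal peptidase subunit, at −0.21, Selenok at −0.18, the disulfide isomerase subunit gene P4hb at −0.14 and Ssr3 at −0.15. Atf4, named after its values were seen because it heads the branch, measured 2.40, 2.87, 2.04 and 2.54 in WT 1 to 4, against 2.50, 2.40, 1.90 and 2.63 in KO 1 to 4, with overlapping groups and sample 3 lowest in each.

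Much of the spread of the ATF4-type genes went with the sample number, as it did over all genes tested. The number accounted for a median of 71.8% of the sum of squares of an ATF4-type gene over the 8 samples and 45.9% of that of an ER gene, against 66.3% over all genes and 42.9% expected from its degrees of freedom alone. Among ATF4-type genes it took 98.5% for Vldlr, 97.4% for Psat1 and 90.1% for Asns, but 15.1% for Aars. Among ER genes it took 9.48% for Hspa5 and 22.1% for Calr, but 89.1% for Manf and 85.2% for Hyou1. For Manf the slide alone took 88.9%. This pattern was noticed in the data and is given as a description, with no test.

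By the ATF4-type score, samples 3 and 4 of each group, which shared slide 2, stood furthest apart. Sample 4 lay above sample 3 in both genotypes for 11 of 20 ATF4-type genes with values in all samples and for 0 of 16 ER genes, against 31.4% of all genes. It lay below in both for 5 of 20 ATF4-type and 9 of 16 ER genes, against 43.9% of all genes. The differences of sample 4 minus sample 3 were 3.63 in WT and 4.02 in KO for Vldlr, 2.44 in WT and 2.24 in KO for Chac1, 1.56 in WT and 2.92 in KO for Asns and 1.46 in WT and 1.56 in KO for Trib3. Those 4 genes carry a CARE match. Nupr1, Aars and Gars carry one too, with within-group SDs of 0.17, 0.17 and 0.20. Psat1 and Ddit3, with no CARE match in their windows, were also higher in sample 4 (0.44 in WT and 0.69 in KO for Psat1, 0.36 in WT and 0.67 in KO for Ddit3). Whether the element has a part in this pattern was not tested, and bases outside the windows were not searched. The synthetase genes Wars, Nars and Gars were lower in sample 4 than in sample 3 in both groups, with −0.86 in WT and −0.56 in KO for Wars.

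**Figure D3:**
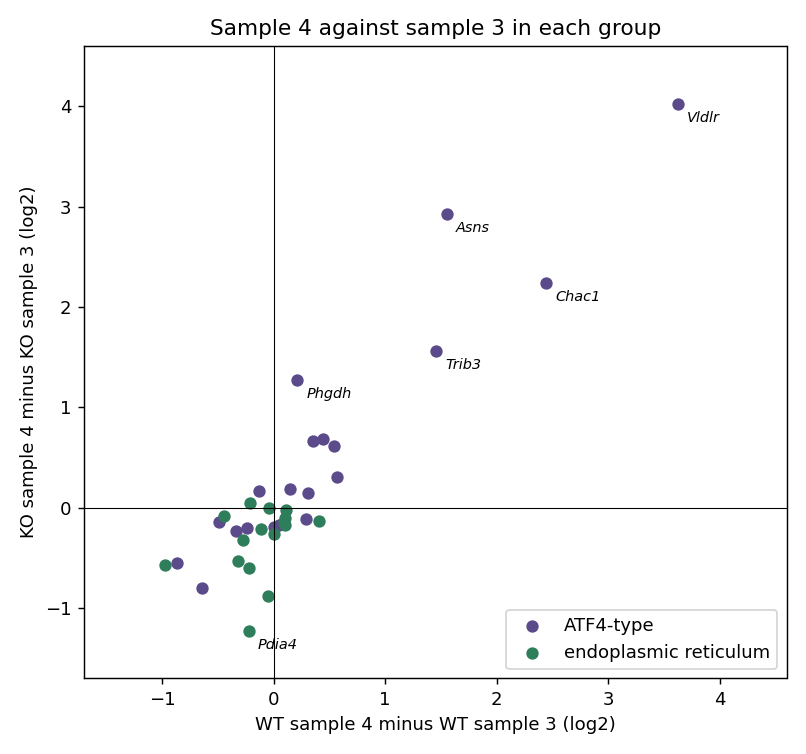
Sample 4 minus sample 3 in log2 units, for WT on the horizontal and KO on the vertical axis, 1 point per gene with values in all samples (20 ATF4-type, 16 ER). Vldlr, Asns, Chac1 and Trib3 lie far up the diagonal, from 1.46 to 4.02, and 0 of the ER genes lie above 0 on both axes.

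**Figure D4:**
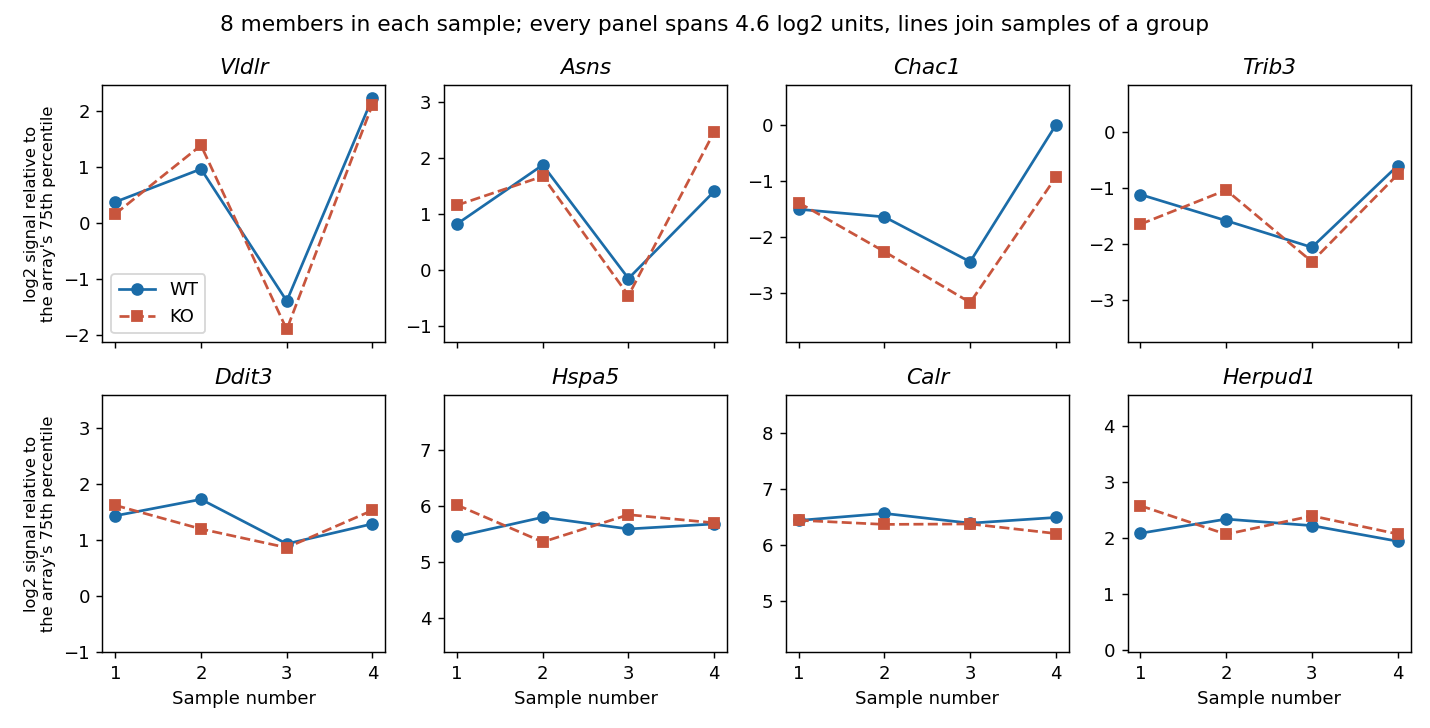
Log2 signal relative to each array's 75th percentile for 8 members in each sample, WT as circles and KO as squares. Lines only join the samples of a group, since the numbers have no order. Vldlr, Asns, Chac1 and Trib3 are higher in sample 4 than in sample 3 of both groups, with gaps between genotypes at one number of up to 1.06 (Asns), while Hspa5, Calr and Herpud1 stay within 0.66 log2 units.

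Markers of other cells moved with the same numbers. The tumour epithelial score, the mean centred log2 signal of 10 markers such as Epcam, Krt8 and Cldn3, measured −0.26, 0.48, −1.64 and 1.17 in WT 1 to 4, against −0.31, 0.79, −1.80 and 1.57 in KO 1 to 4. Sample 3 was lowest and sample 4 highest in both groups, the order of Vldlr. All 10 markers were tested, 9 were well above background on all 8 arrays, the defining genes Epcam, Krt8 and Krt18 among them, and the summed level, in multiples of the array's 75th percentile, ran from 24.2 to 146 in WT and from 26.8 to 149 in KO. The fibroblast score (6 of 6 markers, summed level 8.56 to 41.6 in WT and 9.09 to 55.4 in KO) measured −0.16, 0.49, −1.54 and 0.82 in WT 1 to 4, against 0.27, −0.067, −1.36 and 1.54 in KO 1 to 4. The macrophage score (14 of 15 markers, summed level 289 to 583 and 303 to 582) was highest in sample 3 and lowest in sample 4, with 0.19, 0.020, 0.56 and −0.69 in WT 1 to 4, against 0.24, −0.19, 0.51 and −0.63 in KO 1 to 4. The part of these other cells in the members' values was not tested, and in such sorted bulk samples fewer cells of a type and less RNA per cell cannot be told apart.

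The ATF4-type score measured 0.035, 0.13, −0.26 and 0.19 in WT 1 to 4, against 0.064, 0.0054, −0.39 and 0.23 in KO 1 to 4, and the ER score 0.0070, −0.078, 0.18 and 0.052 in WT 1 to 4, against 0.036, −0.22, 0.17 and −0.15 in KO 1 to 4. The first was lowest in sample 3 of both groups and the second highest there. Both scores differed between genotypes by less than their SD within groups (−0.048 against 0.20 and 0.26, and −0.082 against 0.11 and 0.18). Markers that leaned with genotype were also measured, and their part in the members' values was not tested: 9 of 10 T cell and 8 of 9 NK cell markers were higher in KO and 8 of 8 endothelial markers were lower, 0 of these 27 being called by limma (1, Vwf, at an unadjusted p under 0.05, and 14 of 27 with the replicate block, against 7.52% of all genes, with 0 called there too). Plasma cells, which run a strong unfolded protein response, are covered by the B and plasma cell list, of which 4 of 7 markers were higher, with scores of 0.51, 0.97, −0.34 and −0.81 in WT 1 to 4, against 0.60, 0.58, −1.23 and −0.28 in KO 1 to 4. The early response genes, such as Fos and Jun, were higher in 2 of 10, with scores of 0.12, 0.13, −0.10 and −0.011 in WT 1 to 4, against 0.30, −0.19, −0.24 and −0.016 in KO 1 to 4. The neutrophil list had 2 of 7 markers higher. The adipocyte list had 2 of 4 higher, among them the dim Adipoq, named after its values were seen, at −7.50, −6.73, −5.64 and −5.62 in WT 1 to 4, against −4.54, −4.31, −4.92 and −4.65 in KO 1 to 4. Its groups did not overlap, as for 0.738% of all genes with KO above. It was well above background on 2 WT and 4 KO arrays, and it was not called by limma (difference 1.77 ± 0.43, standard error). Of the other adipocyte markers Fabp4 differed by 0.39, Plin1 by −0.30 and Cfd by −1.42. Cfd was well above background on 4 WT arrays and 1 KO array.

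**Figure D5:**
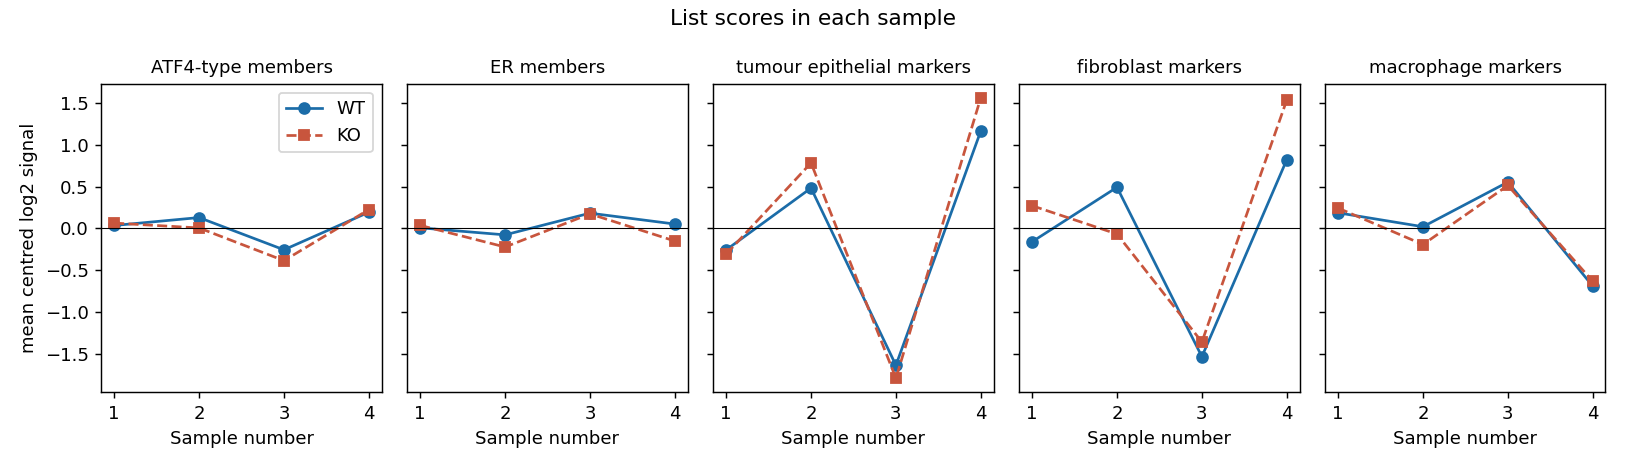
Mean centred log2 signal of 5 lists in each sample, WT as circles and KO as squares, joined within a group although the numbers have no order. The ATF4-type score dips in sample 3 of both groups (−0.26 and −0.39) where the tumour epithelial and fibroblast scores are lowest (−1.36 to −1.80), and the ER and macrophage scores are highest there. The T cell, NK cell and neutrophil scores, not drawn, are also lowest in sample 3 of both groups.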

How the data were processed

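Total RNA was labelled with Cy3 and hybridised to 1-colour Agilent arrays, per the labels' protocols. The authors deposited each array's intensity values from Feature Extraction 10.7.1.1, background-corrected per the file headers (the submitters' processing notes name 10.5, the headers the mm9 build). Their table of processed intensity values, of unstated scale, resembled quantile-normalized median signal (r = 0.999 over 26919 probes, column medians 92.0 to 94.0) and served as an alternative.

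Control and outlier-marked spots were dropped, log2 processed signals averaged per probe and each array's 75th percentile subtracted. A probe was kept if it was well above background on 4 or more of the 8 arrays (27165 of 41174 probes), then the brightest per gene. Accessions named 25097 probes through a RefSeq table (GRCm38.p6). Groups were compared with limma 3.58.1 (lmFit, eBayes; R 4.3.3), two-sided, Benjamini-Hochberg over all genes, tested on simulated data. List scores average genes centred over the samples, with missing values left out. Members and lists were chosen with earlier results of these data known. Values in every sample are given for defining members and the 6 smallest p values of each branch, and Vldlr and Gdf15 were added after their values were seen. Same-numbered WT and KO samples deviated together (r = 0.30, 0.14, 0.70 and 0.51 for numbers 1 to 4, all over the limit of 0.1). The numbers were therefore taken as pairs, but only in the pair counts and the replicate block. For number 2 this pairing was not distinct, as WT 2 also went with KO 4 (r = 0.15) and KO 2 with WT 4 (r = 0.14). Where no block is named, the standard errors, intervals and p-values, that of the Atf3 permutation included, are unpaired. The labels do not say what a number shares. Alternatives: normexp (offset 50, on median signals), quantile normalization, dim-probe filters, the deposited table, slide and replicate blocks, single slides, eBayes trend, mean of probes and leaving out each sample.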

Additional observations from a re-analysis of the deposited data

Results flagged for a closer look

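Of 81 groups of 4 values examined (the 37 members, Atf3 and 3 scores in each genotype, without Nupr1 in KO, which has 3 values), 1 held a sample far from the others, where chance gives about 1 in 20. Atf3 measured 5.6 in KO sample 1, with the other KO samples between 4.93 and 5.04. The gap to the nearest was 0.834 of the group's range, above Dixon's 95% critical value. Without that sample the Atf3 difference fell from 0.25 to 0.094. None of the members and scores examined was so marked.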

How the results depend on the processing

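Under every alternative run, 0 of the 37 members were called and 0 had an unadjusted p under 0.05 (limma), the replicate block included, which changed no call. The count of called genes over the whole table was 0 in each, except 1 without KO sample 1 (range 0 to 1). Leaving out samples gave 7 to 11 ATF4-type genes higher in KO, and 3 to 7 ER genes, 7 of 16 without WT sample 3 or KO sample 2. On slide 1 alone 7 of 16 ER genes were higher. With normexp on median signals the counts were 14 of 21 and 12 of 16 as the median of all genes moved from −0.0098 to −0.13. The cause was not tested. The direction of a member was never called, and point estimates changed sign, that of Asns (0.22 in the main setting) included, in 69 of 720 values, a total that counts Atf3 besides the members. The differences with a changed sign were, with normexp, Ddit3 0.035, Ppp1r15a 0.0030, Ddit4 0.12, Psat1 0.037, Psph 0.013, Slc3a2 0.053, Hsp90b1 0.11, Calr 0.052, Canx 0.094, Dnajb9 0.062, Sdf2l1 0.14, Hyou1 0.052, Creld2 0.18, Manf 0.052; on slide 2 alone, Ddit3 0.087, Ppp1r15a 0.044, Psat1 0.0073, Shmt2 −0.12, Gdf15 −0.28, Creld2 0.065; on slide 1 alone, Trib3 0.0084, Ddit4 0.098, Mthfd2 −0.017, Vldlr 0.10, Gars −0.13, Wars −0.064, Eif2ak3 0.053, Sdf2l1 0.028, Hyou1 0.016, Pdia4 0.24, Edem1 −0.18; with the mean of probes, Canx 0.046; in the deposited table, Creld2 0.033. Leaving out each sample in turn, the differences that changed sign ranged over Asns −0.20 to 0.78, Canx −0.11 to 0.012, Creld2 −0.074 to 0.098, Ddit3 −0.18 to 0.10, Ddit4 −0.12 to 0.072, Edem1 −0.20 to 0.13, Eif2ak3 −0.29 to 0.013, Gars −0.050 to 0.13, Gdf15 −0.060 to 0.34, Hyou1 −0.15 to 0.049, Mthfd2 −0.053 to 0.20, Pdia4 −0.65 to 0.073, Ppp1r15a −0.36 to 0.021, Psat1 −0.16 to 0.093, Sdf2l1 −0.13 to 0.050, Slc3a2 −0.19 to 0.0082, Trib3 −0.34 to 0.19, Vldlr −0.75 to 0.68 and Wars −0.16 to 0.14. Nupr1 had no value in the deposited table and under the strictest filter. Signal over background was well above the limit on all 8 arrays for 36 of 37 members. Of 17 other probes of the members, 8 had a difference of opposite sign to the brightest probe of the same gene.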
